A study of Equus caballus with 9 samples.

Results

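In horse bone marrow stromal cells, 66 of 13571 genes tested (0.486%) were ordered in the same way in all 9 RNA sequencing libraries. Every library of cells taken towards adipocytes (ADM) lay above every library of undifferentiated cells (MSC), and every MSC library lay above every library of cells taken towards chondrocytes (CDM). The members were chosen from the counts of the files after removal of the summary lines, a filter on low counts and TMM scaling to CPM, the usual depth-scaled unit of counts. The rule used the level of each gene in all 9 libraries, so the order and the size of its steps describe the choice and are not evidence of a difference between groups. The opposite order, CDM above MSC above ADM, held in 46 genes (0.339%).

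The cultures were equine MSCs from bone marrow, left undifferentiated or differentiated by separate procedures towards adipocytes or chondrocytes, with 3 libraries of polyadenylated RNA per group. All 3 groups thus share the same kind of starting cell. The sources used here do not give the media, the length of culture, or the age, sex or number of the donor animals. Nothing in the labels says that replicates came from separate animals or cultures, so the spread between libraries may be technical.

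Mesenchymal stromal cells of bone marrow can be grown in culture and directed into fat, cartilage or bone cells. Adipogenesis is driven by PPARG and the C/EBP factors, which switch on genes for the uptake, synthesis and storage of lipid. Chondrogenesis is driven by SOX9 and its partners, which switch on the collagens and proteoglycans of cartilage matrix. A gene with the order described here is highest in cells given the adipogenic procedure and lowest in cells given the chondrogenic one. The undifferentiated cells lie in between.

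Genes are given by the Ensembl identifiers of the files, which are not paired with names. None of the identifiers matched the gene table used here (0 matches), so no member is named by symbol, placed in the genome or assigned a role. Only 4 identifiers are printed, taken by a fixed rule. The labels of the cells could not be checked against adipocyte, chondrocyte or stromal markers for the same reason, and the 15 fixed pathway lists could not be counted.

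Gene counts per library ranged from 17260899 in CDM replicate 2 to 39331930 in ADM replicate 1. CDM replicate 2 stood apart. It had the lowest TMM factor (0.525, against 0.904 to 1.41 elsewhere), and 3 counts there correspond to 0.331 CPM, against 0.0757 to 0.104 CPM in the other libraries. The members held 4265 counts in CDM replicate 2 and 18580 to 70389 in each of the others. Levels below are TMM-scaled CPM, and differences are those of the groups' mean log2 CPM (prior count 2), unless stated.

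Summed over the 66 members, the level was 1776, 1574 and 1441 CPM in ADM replicates 1, 2 and 3. It was 915, 938 and 980 CPM in the MSC replicates and 705, 471 and 588 CPM in the CDM replicates. CDM replicate 2 had the lowest sum and ADM replicate 1 the highest. The median member was at 12.7 CPM in ADM (group means from 0.622 to 179 CPM), 6.86 in MSC (0.237 to 94.4) and 4.20 in CDM (0.0663 to 77.0). In bulk RNA, fewer cells expressing a gene and less of its RNA per cell cannot be told apart.

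**Figure D1:**
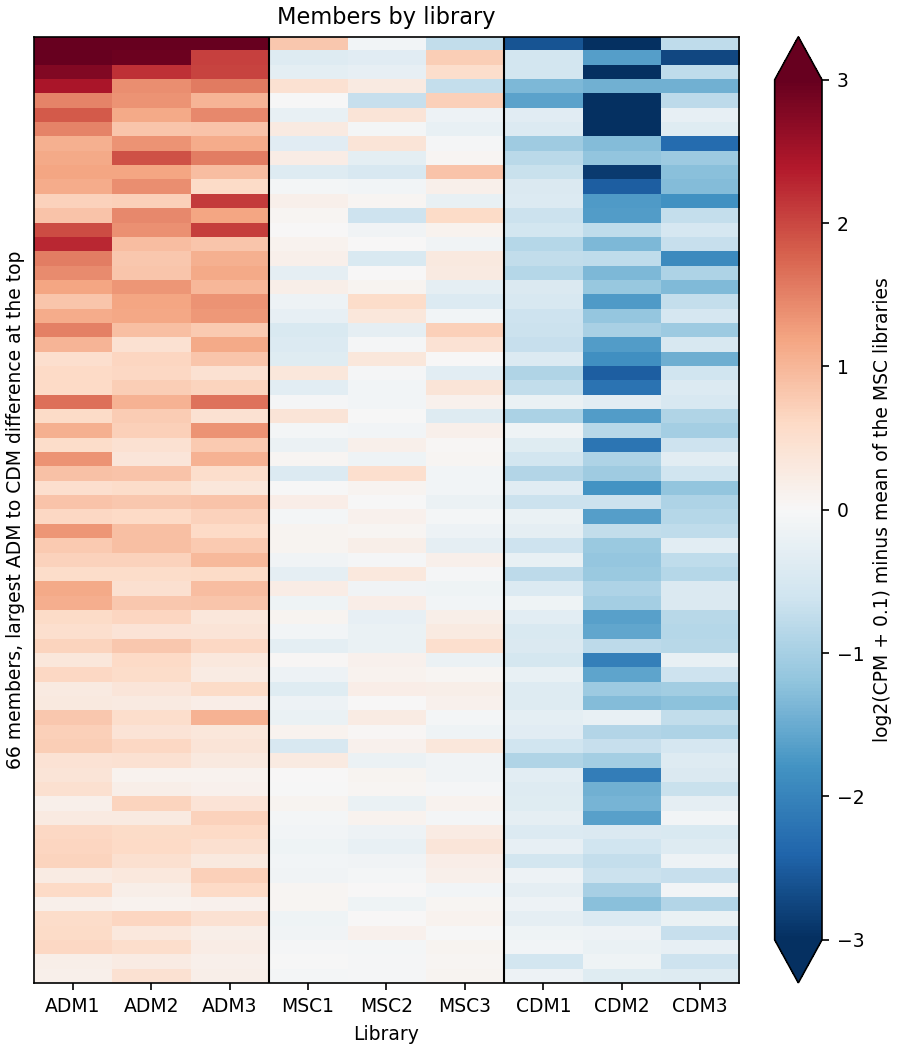
Each row is 1 of the 66 members and each column 1 library. Colour gives log2(CPM + 0.1) minus the mean of the 3 MSC libraries, and rows run from the largest to the smallest ADM to CDM difference. The ADM columns are red and the CDM columns blue by the rule itself. CDM replicate 2 holds the darkest blues, with a median of -1.29 against -0.43 and -0.71 in CDM replicates 1 and 3, in log2 CPM (prior count 2).

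The members were genes of low to moderate level. Their mean over all libraries had a median of 7.16 CPM (quartiles 3.67 and 17.5), against 16.7 CPM (quartiles 4.14 and 45.4) over all genes tested. The level of 29 members was at least 10 CPM and that of 6 was under 1 CPM. In 20 members at least 1 library had fewer than 10 counts, and in 14 members every library had at least 100. CDM replicate 2 had 0 counts for 3 members, which allows up to 0.331 CPM there, and no other library had 0 counts for any member.

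The steps of the order were modest for most members. The median difference was 0.73 on the log2 scale between ADM and MSC (from 0.13 to 3.68) and -0.88 between CDM and MSC (from -2.36 to -0.18). Over all genes tested these medians were 0.02 and -0.02. As ratios of group means, ADM was 1.62-fold above MSC at the median member, MSC 1.79-fold above CDM, and ADM 2.89-fold above CDM (from 1.496-fold to 51.7-fold). The step from MSC to ADM was the larger of the 2 in 31 members and the step from MSC to CDM in 35. Both comparisons share the MSC libraries.

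The members fell into 4 classes by a 2-fold ratio of means, a grouping made after the values were seen. Both steps reached 2-fold in 13 members, which were mostly of low level (median 3.34 CPM) and had a median ADM to CDM ratio of 7.83. Only the step up to ADM reached it in 10 members (median 3.75 CPM) and only the step down to CDM in 6 (median 5.25 CPM). In the other 37 members, of median 13.7 CPM, neither step reached 2-fold, and the median ratios were 1.40 for ADM over MSC and 1.60 for MSC over CDM. This class with small steps was the one with the highest median level.

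ENSECAG00000008259 had the highest ADM to MSC ratio of the members. It was at 139.7, 69.7 and 61.9 CPM in ADM replicates 1, 2 and 3, at 11.5, 6.15 and 3.90 CPM in the MSC replicates and at 1.004, 0.442 and 3.80 CPM in the CDM replicates. Every ADM library lay at least 5.39-fold above every MSC library, while CDM replicate 3 lay just under MSC replicate 3. The CDM values rest on 29, 4 and 120 counts. The means were 90.4 ± 42.8 CPM in ADM, 7.18 ± 3.90 in MSC and 1.749 ± 1.798 in CDM (SD, n = 3 each), or 12.6-fold from MSC to ADM and 4.11-fold from CDM to MSC. CDM varied as much as its own mean for this gene.

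ENSECAG00000011325 had the next highest fitted ADM to MSC ratio among members of at least 5 CPM in ADM. It was at 15.4, 13.1 and 7.04 CPM in the ADM replicates, at 1.21, 1.25 and 2.74 CPM in the MSC replicates and at 1.07, 0.442 and 0.158 CPM in the CDM replicates. The lowest ADM library was 2.57-fold above the highest MSC library, and MSC replicates 1 and 2 lay close to CDM replicate 1. CDM counts were 31, 4 and 5. The means were 11.8 ± 4.30, 1.73 ± 0.873 and 0.558 ± 0.469 CPM in ADM, MSC and CDM (SD, n = 3 each).

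ENSECAG00000022378 was one of 2 members named for the step down to CDM. Its levels were 61.4, 55.6 and 44.3 CPM in the ADM replicates, 21.6, 13.4 and 35.8 in the MSC replicates and 7.13, 2.65 and 12.5 in the CDM replicates. The MSC libraries spread widely, and CDM replicate 3 came within 1.07-fold of MSC replicate 2. The means were 53.8 ± 8.69, 23.6 ± 11.3 and 7.44 ± 4.95 CPM in ADM, MSC and CDM (SD, n = 3 each).

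ENSECAG00000009660 had the widest gap of the 4 between MSC and CDM, but not between ADM and MSC. It was at 11.2, 13.7 and 11.6 CPM in the ADM replicates, at 4.16, 6.95 and 5.14 in the MSC replicates and at 2.49, 2.10 and 0.982 in the CDM replicates. The gap was 1.61-fold between ADM and MSC and 1.67-fold between MSC and CDM, with 19 to 467 counts per library. The means were 12.1 ± 1.34, 5.42 ± 1.42 and 1.86 ± 0.784 CPM in ADM, MSC and CDM (SD, n = 3 each).

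**Figure D2:**
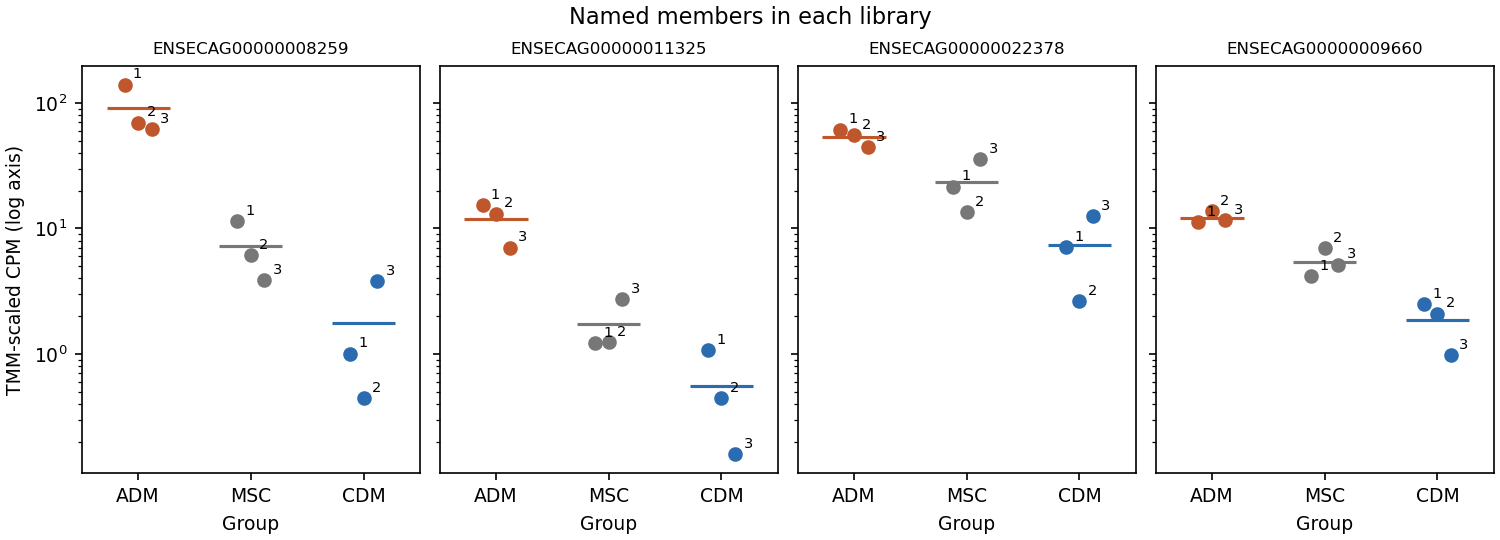
TMM-scaled CPM on a log axis for the 4 members given by identifier. Points are single libraries labelled by replicate number, lines are arithmetic means of 3 libraries. The ADM points of ENSECAG00000008259 lie far above its MSC points, by at least 5.39-fold, whereas the lower gap is narrow in all but ENSECAG00000009660, at 1.03-fold to 1.13-fold.

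The most abundant member, chosen after its values were seen, was at 228, 171 and 137 CPM in the ADM replicates, 95.9, 95.5 and 82.2 in the MSC replicates and 74.99, 54.4 and 53.7 in the CDM replicates. Its ADM libraries spread more than its MSC libraries, and its lower gap was 1.097-fold. The member with the next highest level was at 138 ± 9.59 CPM in ADM, 94.4 ± 8.10 in MSC and 77.0 ± 5.96 in CDM (SD, n = 3 each), a compact order of 1.79-fold from end to end. The least abundant member was at 0.622 ± 0.141, 0.237 ± 0.135 and 0.0663 ± 0.0576 CPM, with 3, 0 and 3 counts in the CDM replicates.

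How far apart the groups lay was measured by 2 gaps per member. The upper gap is the ratio of the lowest ADM library to the highest MSC library, and the lower gap the ratio of the lowest MSC library to the highest CDM library. The upper gap had a median of 1.19-fold and reached 5.39-fold, whereas the lower gap had a median of 1.101-fold and reached 1.79-fold. The upper gap was the wider one in 47 members and the lower gap in 19. Both gaps were at least 1.2-fold in 12 members and at least 1.5-fold in 4.

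At most of these gaps the counting intervals of the closest libraries overlapped. The exact Poisson 95% intervals of the libraries on either side did not overlap at the upper gap in 29 members and at the lower gap in 9. They were apart at both gaps in 6 members, at the upper gap only in 23, at the lower gap only in 3 and at neither in 34. In those 34 members the intervals overlapped at both gaps, and in the 23 and the 3 members at the other gap. Requiring separate intervals is stricter than a direct comparison of the counts. Overlap therefore does not show that the order of the closest libraries was unresolved. These intervals cover counting error only, not the difference between cultures.

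The 6 members apart at both gaps had mean levels of 6.47 to 110 CPM. One of them, chosen after its values were seen, was at 33.0, 32.3 and 33.4 CPM in the ADM replicates, 21.0, 18.01 and 16.1 in the MSC replicates and 11.6, 11.7 and 9.63 in the CDM replicates. Its 3 groups were compact, with 1.79-fold from MSC to ADM and 1.67-fold from CDM to MSC. A second was at 41.4, 40.4 and 40.9 CPM in ADM, 25.7, 24.2 and 31.9 in MSC and 20.5, 19.9 and 19.7 in CDM, with the widest spread in MSC.

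**Figure D3:**
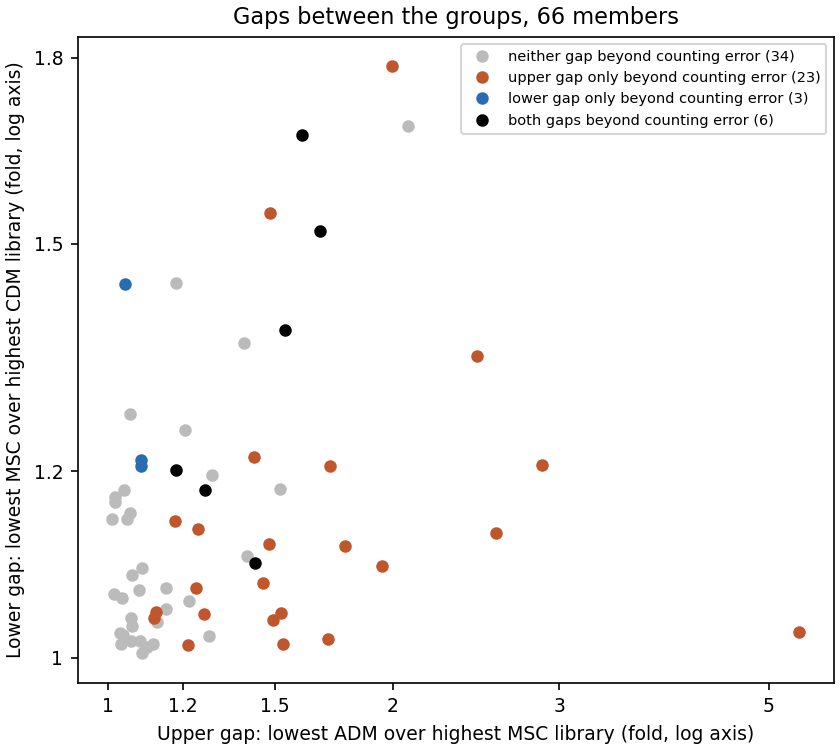
Upper gap against lower gap for the 66 members, both as fold on log axes, with colour for the gaps whose Poisson intervals do not overlap. Most points lie near 1 on the vertical axis, where the median is 1.101-fold, and 6 black points are apart at both gaps.

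At the edge of the rule, the members just inside had a smaller gap of 1.004-fold at the narrowest. Just outside, 101 genes missed the order by 1 of the 18 pairs of libraries, 65 at the lower gap and 36 at the upper one. The missed gap was at least 0.9-fold in 40 of these genes, and 0.999-fold in the nearest. CDM replicate 1 was in the misplaced pair of 42 genes, MSC replicate 1 of 41 and MSC replicate 3 of 43, against 5 to 20 for each of the other libraries.

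The libraries of a group did not contribute equally. CDM replicate 2 was the lowest CDM library in 47 members (71.2%, against 45.0% of all genes tested) and the highest in 3 (4.55%, against 39.0%). CDM replicate 1 was the highest CDM library in 41 members (62.1%, against 35.2%) and the lowest in 0. CDM replicate 1 therefore set the lower gap most often and CDM replicate 2 rarely. ADM replicate 1 was the highest ADM library in 31 members (47.0%, against 29.1%). Relative to library totals, a low TMM factor raises the scaled CPM of a library. The low depth of CDM replicate 2 coincides with its low values here, and the part of depth in them was not tested.

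Without CDM replicate 2, with filter and scaling recomputed, 91 genes had the order and 61 of the 66 members were among them. The median difference between CDM and MSC over the members was then -0.58 instead of -0.88, and that between ADM and MSC 0.69 instead of 0.73. The lower step was thus smaller without that library. Its direction was fixed by the rule.

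The members' libraries spread less within groups than those of other genes, as the rule favours. The median SD of log2 CPM was 0.22 in MSC, 0.19 in ADM and 0.48 in CDM, against 0.47, 0.26 and 0.82 over all genes tested. Deviations from the group means tended to run together. The median Pearson correlation between pairs of members over the 9 libraries was 0.337, against 0.00107 between pairs of all genes tested. The rule used the same library values, so this likeness cannot be told apart from the choice of the members. The libraries are shared by every pair, and the mean deviation of the members ran from -0.52 in CDM replicate 2 to 0.39 in CDM replicate 1 and was widest in those CDM libraries.

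In the edgeR fit of all 9 libraries, none of the members passed in any comparison at an adjusted p under 0.05, and because the rule used these contrasts nothing is read from their p-values. For ADM against MSC, 0 of 66 members passed in the edgeR quasi-likelihood test at an adjusted p under 0.05, where 0.0147% of all genes tested were called higher in ADM, while at an unadjusted p under 0.05 there were 22, where 5.16% of all genes were called. For CDM against MSC, 0 passed where 0% of all genes were called lower in CDM in edgeR, and 25 reached an unadjusted p under 0.05, where 4.91% did. For ADM against CDM, 0 passed where 0% were called higher in ADM in edgeR, and 61 reached an unadjusted p under 0.05, where 7.33% did. DESeq2 called 10 members higher in ADM than MSC (background 2.11%), 0 lower in CDM than MSC (0.343%) and 49 higher in ADM than CDM (2.83%).

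The full order, held by 0.486% of genes tested, requires both steps, so each step alone is at least as frequent by definition. ADM libraries lay above all MSC libraries in 14.8% of genes tested, MSC libraries above all CDM libraries in 6.4%, and ADM libraries above all CDM libraries in 15.7%. The 66 members are 3.29% of the 2006 genes of the first list and 7.59% of the 869 genes of the second. These lists share the MSC libraries.

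For the members given by identifier, edgeR gave these fitted log2 values. ENSECAG00000008259 had 3.65 (SE 0.76) for ADM minus MSC and -1.98 (SE 0.73) for CDM minus MSC, and ENSECAG00000011325 had 2.77 (SE 0.70) and -1.61 (SE 0.70). ENSECAG00000022378 had 1.19 (SE 0.54) and -1.65 (SE 0.55), and ENSECAG00000009660 had 1.16 (SE 0.43) and -1.55 (SE 0.44). The standard errors come from 1 spread shared by the 3 groups.

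The order was then looked at in libraries that had not been used to choose the genes. Genes were chosen by the same rule on 6 libraries, leaving out all libraries of 1 replicate number, and read in the 3 left out, with the filter and scaling of all 9 libraries. Without replicate 1, 445 genes were chosen, and 24.3% of them had the full order in the left-out libraries, against 16.5% of all genes tested. Without replicate 2 the values were 257 genes and 41.6%, against 22.5%. Without replicate 3 they were 425 genes and 28%, against 15.95%. In each case most of the chosen genes did not have the full order in the left-out libraries. These genes are a wider set than the 66 members, and the replicate numbers are not known to pair the cultures.

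The upper and the lower step were also read separately, and their relation was not the same for every replicate number. ADM lay above MSC in the left-out libraries for 90.6%, 78.6% and 59.5% of the chosen genes without replicates 1, 2 and 3, against 49.95%, 49.3% and 52.2% of all genes tested. MSC lay above CDM for 30.6%, 56.0% and 65.65%, against 50.5%, 52.7% and 48.4%. For the replicate 1 libraries, the genes chosen on the others thus had MSC above CDM less often than the genes as a whole; in most of them MSC did not lie above CDM there. This split joins MSC replicate 1 and CDM replicate 1 by number only. Among the CDM libraries, CDM replicate 1 had the deviations from the group mean closest to those of MSC replicate 3. For MSC replicates 1 and 2 the closest was CDM replicate 3. Some CDM library is always the closest, so no conclusion is drawn from these matches. Leaving out MSC replicate 3 gave 195 ordered genes, against 134 without MSC replicate 1. The labels of the libraries could not be checked against marker genes. Whether each library carries the right label was not tested, and the order of all members rests on these labels. No test was made of these shares, since genes are not independent replicates.

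**Figure D4:**
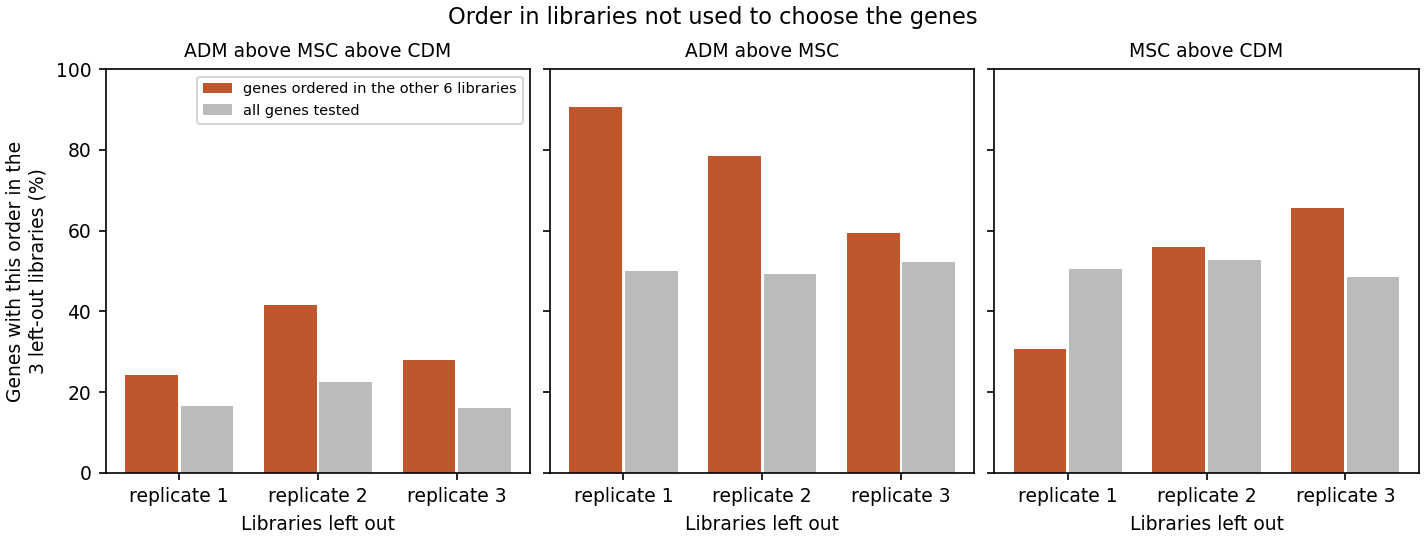
Percent of genes with the stated order in 3 libraries left out of the choice, for genes ordered in the other 6 libraries (orange) and for all genes tested (grey). The orange bars exceed the grey ones for ADM above MSC in all 3 cases. For MSC above CDM the orange bar is below the grey one when replicate 1 is left out, at 30.6% against 50.5%.

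Membership also depended on how the libraries were scaled. With DESeq2 size factors 53 genes were ordered, all of them among the 66. With library totals only, 121 genes were ordered and 32 of the 66 were among them. Of the 34 members lost there, 30 failed at the upper gap and 8 at the lower gap, some at both. This scaling moved the median of all genes to -0.55 for CDM minus MSC and to -0.18 for ADM minus MSC, against -0.02 and 0.02 with TMM. Over the 66 members the medians became -1.40 for CDM minus MSC, against -0.88 with TMM, and 0.53 for ADM minus MSC, against 0.73. Of the 6 members whose gaps exceeded counting error, 5 were ordered under library totals and all 6 under DESeq2 size factors. Of the 4 members given by identifier, ENSECAG00000008259 lost the order under library totals.

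When 1 library at a time was left out, 54 of the 66 members were ordered in all 9 cases, and 27 were ordered in those cases and under both other scalings. Members were lost because the scaling was recomputed on fewer libraries, as all 66 stayed in the set of genes tested. The number of ordered genes grew most with CDM replicate 1 or MSC replicate 3 left out, to 258 and 195.

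**Figure D5:**
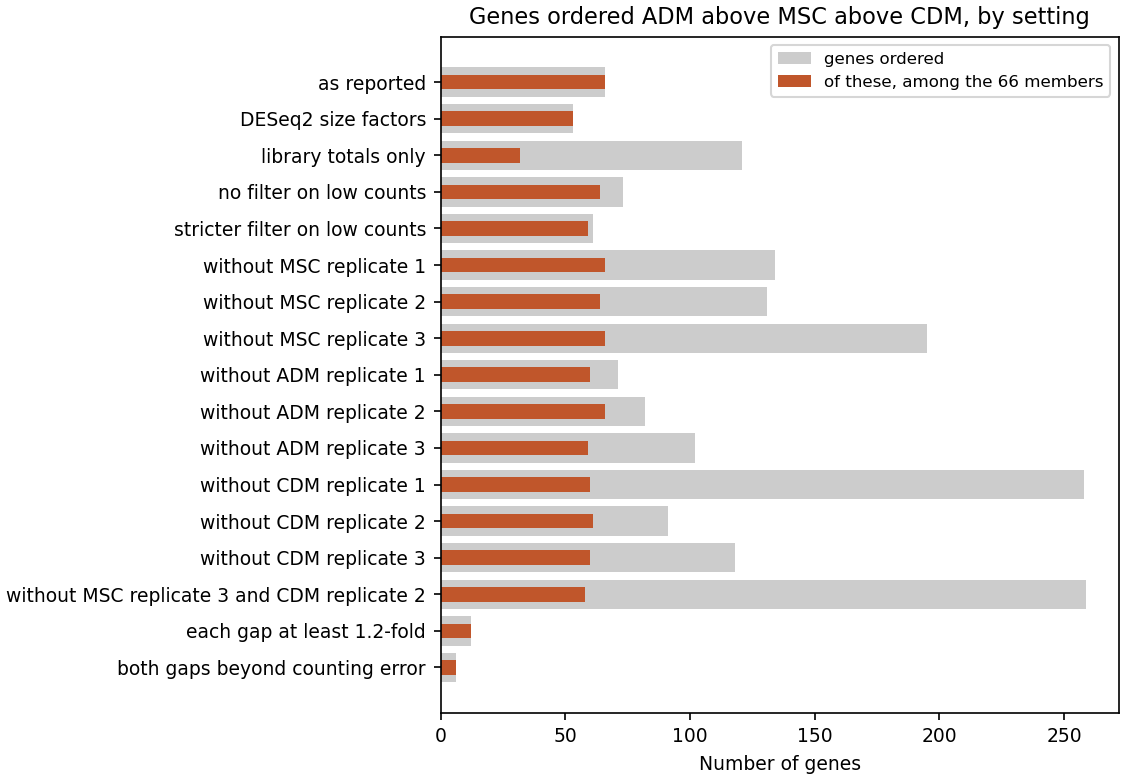
Number of genes ordered ADM above MSC above CDM (grey) with all libraries, without 1 library, without MSC replicate 3 and CDM replicate 2, or under another filter, scaling or gap rule, and the number of the 66 members among them (orange). Settings that leave out a whole replicate number are not drawn. The bars drawn run from 6 genes with both gaps beyond counting error to 259 without MSC replicate 3 and CDM replicate 2. A rule on fewer libraries is easier to meet.

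Identifiers of a few members lay near each other in the numbering. Of the 66 members in the order of the files, 6 pairs of neighbours lay within 10 places and 2 pairs were adjacent. Whether these lie side by side in the genome, or share sequence so that the counting could split their reads, was not analysed here. The same count was not made over all genes tested, so these numbers do not show that members cluster.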

How the data were processed

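RNA sequencing was made on 9 libraries, 3 each of MSC, ADM and CDM, grouped by their titles. The authors deposited unnormalized counts of reads per Ensembl gene. Per the submitters' processing notes, the tools were HTSeq 1.99.2, STAR 2.7.5c, FastQC 0.11.9 and DESeq2 3.16, and the build equCab3. The annotation release and strand setting are not given in the sources used. Reads of overlapping or antisense genes may thus not have been kept apart. The 5 summary lines of each file, 24.4% to 36.4% of counted reads, were left out.

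R 4.3.3 and edgeR 4.0.16 were used: filterByExpr with the 3 groups, TMM, and the quasi-likelihood test in 1 fit of all libraries (6 residual degrees of freedom, 2-sided, Benjamini-Hochberg over 13571 genes, threshold 0.05). DESeq2 1.42.0 was the alternative test. Standard errors are the log2 change divided by the root of its F statistic. The procedure was run on simulated data with known changes, as a check of the code. The simulated spread was set below that of these data, whose common biological coefficient of variation was 0.573. The simulated steps were larger than the members' median steps. That run therefore does not show how the rule or the tests perform on these data.

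The members, lists and tests were chosen with earlier results of these data known. The genes given by identifier are the 2 members with the largest fitted ADM to MSC ratio and the 2 others with the largest MSC to CDM ratio, with 5 CPM or more in the higher of the groups. The part of that rule that needs symbols, the marker list and the 15 pathway lists were not applied, because no identifier matched.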

Additional observations from a re-analysis of the deposited data

Results flagged for a closer look

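In the 4 members given by identifier, all ADM libraries exceeded the MSC range and all CDM libraries fell short of it. The differences of ADM and of CDM from MSC thus had opposite signs. The rule that chose the members required this, and the difference was not tested for them. The differences of mean log2 CPM between ADM and CDM were 6.05 for ENSECAG00000008259, 4.49 for ENSECAG00000011325, 3.09 for ENSECAG00000022378 and 2.76 for ENSECAG00000009660.

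The HTSeq summary lines, left out of the comparisons, exceeded the MSC range in 2 CDM libraries. Ambiguous reads were 4.47% and reads with more than 1 alignment 7.49% of counted reads in CDM replicate 2, and reached 1.74% and 6.72% in MSC. Reads outside annotated features made up 24.4% and 23.3% in CDM replicates 2 and 3, while MSC reached 22.1%.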

How the results depend on the processing

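The number of ordered genes, 66, was 53 with DESeq2 size factors, 73 without a count filter and 61 with a stricter one. It was 121 with library totals, 12 when each gap had to be at least 1.2-fold, 6 when both gaps had to exceed counting error and 259 without MSC replicate 3 and CDM replicate 2, the last 2 settings chosen after seeing the data. Leaving out 1 library gave 71 (ADM replicate 1) to 258 (CDM replicate 1), with 134, 131 and 195 without MSC replicates 1, 2 and 3, 102 without ADM replicate 3 and 118 without CDM replicate 3. Leaving out a replicate number of all groups gave 233 to 449, since fewer libraries make the rule easier to meet.

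The direction of the median difference over the members was fixed by their choice. Its size changed most with library totals for CDM minus MSC, to -1.40 from -0.88, and for ADM minus MSC, to 0.53 from 0.73. For ADM against MSC, 4 genes passed in edgeR, and 600 in DESeq2, 41 without a filter, 183 in a fit of those 2 groups alone, and 0 to 173 when 1 library was left out, the most without CDM replicate 2 (23 without CDM replicate 1 and 0 or 1 without any ADM or MSC library). For CDM against MSC, 0 passed in edgeR (1502 at an unadjusted p under 0.05) and 92 in DESeq2. For ADM against CDM, 0 passed in edgeR (2583 at an unadjusted p under 0.05), 964 in DESeq2, 1 without a filter, and 0 to 1 when 1 library was left out, the 1 without ADM replicate 2. The cause of these differences was not tested.

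With the replicate number as a block, 0 genes passed for ADM against MSC (1115 at an unadjusted p under 0.05), 0 for CDM against MSC (583) and 0 for ADM against CDM (1621). Deviations of same-numbered libraries correlated between -0.306 and 0.012. No MSC library was closest to its own number in ADM or CDM, and no ADM library was in CDM. With 3 libraries per group, these correlations cannot tell whether same-numbered libraries share a donor or culture. For the 4 members given by identifier, 160 of 168 values from other settings stayed on the same side of the threshold, and the other 8 passed. Their direction was fixed by the choice of genes. Those 8 were the ADM to CDM difference of all 4 in DESeq2, the ADM to MSC difference of ENSECAG00000011325 and ENSECAG00000008259 in DESeq2, and that of ENSECAG00000008259 without CDM replicate 2 and with only 2 groups.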
